A study of Caenorhabditis elegans with 2 samples.

Results

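Ranked peaks at small nucleolar RNA (snoRNA) genes are the rows of a ranked peak list of SEA-1 binding, made from both replicates, whose summit lay within 100 bp of a gene of biotype snoRNA in the Ensembl annotation of WBcel235 and not within 100 bp of a tRNA gene. There were 217 such peaks among 103831 rows, and leaving out summits near tRNA genes removed 0 of them. No 2 of the 217 had summits within 100 bp of each other, so each is called a site. Assigned to the nearest gene body, they belonged to 198 of the 346 annotated snoRNA genes. The data come from SEA-1 ChIP-seq of 1 group, whole early embryos (0 hour) from bleached Caenorhabditis elegans of strain OP129, with 2 biological replicates. Both replicates carry the transgene wgIs129, in which sea-1 is joined to TY1, EGFP and 3xFLAG tags, together with the unc-119(+) rescue marker in an unc-119(ed3) background. Chromatin was sonicated to a size range of 200-800, and the description names an antibody against GFP while the antibody label reads sea-1. The tagged protein came from a transgene in 1 strain, no control precipitation was used here, and the signal that an unrelated GFP fusion would give at these genes was not tested.

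SEA-1 is a T-box transcription factor that acts as an autosomal signal in the counting of X chromosomes against autosomes. snoRNAs are short nuclear RNAs that guide the modification of other RNAs: the box C/D class directs 2′-O-methylation and the box H/ACA class directs pseudouridylation, mostly of ribosomal RNA. Many are processed out of the introns of host genes, often genes of ribosomal proteins and other translation proteins, and others are transcribed from promoters of their own. RNA polymerase III reads tRNA genes through a pair of promoter elements inside the gene, the A box and the B box, and stops at a run of T. In worms some snoRNA genes, introns included, have been reported to carry such elements just upstream.

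A site is called strong when its row is also a peak of the thresholded list made from this ranked list, and weak otherwise. The ranked list carries an irreproducible discovery rate (IDR) for each row, which is low where compared peak sets place the row alike, and all 60 strong sites were past an IDR of 0.01. Of the 217 sites, 60 were strong (27.6%, 95% Wilson interval 22.1 to 34.0) and 157 were weak. In the whole ranked list 1.2% of rows were strong. Seen from the genes, 60 of the 346 snoRNA genes had a strong site, 140 had weak sites and 146 had none, where C51F7.3 and Y43F4B.12 count as well because each has within 100 bp the site assigned to its neighbour. The strong call rests on the same signal as the values below, so levels of strong against weak sites describe the call and test nothing.

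The DNA at 6 of the 8 strongest sites is shown first because 5 of them share a layout that was rare at weak sites. The others of these 8, ZK265.10 and T02E1.9, are not shown and have no such pair, and 8 of the 15 strongest sites have it. All are printed on the strand of the snoRNA gene from RefSeq's copy of WBcel235, the same assembly as ce11, and positions count from 0 at the first annotated base of the gene, with negative numbers upstream. Capitals mark the A core (TGGNNNAG) and the B core (GTTCNA), which are shortened forms of the A box and B box, where they form the pair that was counted. Where more pairs were possible, at C51F7.4 and Y75B12B.12, the B core farthest downstream and the first A core were taken, so that a further gttcaa of C51F7.4 stays in lower case. W03C9.9 (II:11960798-11960917, + strand, bases -100 to 19) is the strongest of all, and its summit is at -58. C51F7.4 (V:12303539-12303678, + strand, bases -60 to 79) has its summit at 40, inside the gene, and so are both cores. T03F7.8 (V:11314158-11314277, + strand, bases -100 to 19) has its summit at -42, T06C12.16 (V:15873907-15874026, - strand, bases -100 to 19) at -44 and Y43F8C.22 (V:19643168-19643287, - strand, bases -100 to 19) at -59. ZK994.7 (V:8500519-8500658, + strand, bases -60 to 79) has its summit at 10 and no such pair.
W03C9.9: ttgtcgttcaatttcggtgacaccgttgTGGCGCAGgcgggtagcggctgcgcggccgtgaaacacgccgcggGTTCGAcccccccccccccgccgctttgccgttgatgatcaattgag
C51F7.4: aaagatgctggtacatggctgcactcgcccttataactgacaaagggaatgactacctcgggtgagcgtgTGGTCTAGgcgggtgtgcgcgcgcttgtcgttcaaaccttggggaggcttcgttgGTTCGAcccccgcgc
T03F7.8: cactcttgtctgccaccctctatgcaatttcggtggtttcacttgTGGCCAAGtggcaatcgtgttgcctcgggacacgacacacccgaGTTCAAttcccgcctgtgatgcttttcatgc
T06C12.16: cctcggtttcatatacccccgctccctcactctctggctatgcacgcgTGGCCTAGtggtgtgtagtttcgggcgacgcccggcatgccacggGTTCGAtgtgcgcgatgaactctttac
Y43F8C.22: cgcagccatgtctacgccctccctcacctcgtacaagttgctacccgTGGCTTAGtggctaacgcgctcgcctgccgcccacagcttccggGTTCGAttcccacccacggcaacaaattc
ZK994.7: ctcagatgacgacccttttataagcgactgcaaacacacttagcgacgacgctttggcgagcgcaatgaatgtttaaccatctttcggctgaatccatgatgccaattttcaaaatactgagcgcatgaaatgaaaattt

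For contrast, weak sites are shown from the low end of the list and from introns of ribosomal protein genes, and none of them has the pair of cores within 100 bp of its summit. The bases shown follow the summit, so those of F56C9.12, Y24D9A.9 and R151.13 do not reach upstream of the gene. The search of all genes given below found no pair upstream of them. F56C9.12 (III:7337981-7338100, + strand, bases 89 to 208) lies in an intron of gsp-2 and has its summit at 149. C25F6.30 (X:5465971-5466090, + strand, bases -100 to 19) overlaps an exon of ddr-1 and has its summit at -68. F55F1.11 (X:2772133-2772272, + strand, bases -60 to 79) lies in an intron of cgef-1 and has its summit at 9. Y24D9A.9 (IV:4389976-4390095, - strand, bases 213 to 332) lies in an intron of rpl-7A and has its summit at 273. C16A3.11 (III:6374469-6374608, - strand, bases -60 to 79) in rps-13 has its summit at 49, and R151.13 (III:7209442-7209561, + strand, bases 42 to 161) in rpl-6 at 102.
F56C9.12: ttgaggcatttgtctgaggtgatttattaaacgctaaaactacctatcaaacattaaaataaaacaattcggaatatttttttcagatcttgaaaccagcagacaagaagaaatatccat
C25F6.30: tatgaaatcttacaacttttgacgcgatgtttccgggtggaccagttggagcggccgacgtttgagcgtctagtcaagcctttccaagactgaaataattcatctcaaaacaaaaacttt
F55F1.11: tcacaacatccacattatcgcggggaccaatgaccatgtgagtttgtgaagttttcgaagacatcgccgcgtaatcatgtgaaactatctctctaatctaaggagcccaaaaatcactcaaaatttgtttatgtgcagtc
Y24D9A.9: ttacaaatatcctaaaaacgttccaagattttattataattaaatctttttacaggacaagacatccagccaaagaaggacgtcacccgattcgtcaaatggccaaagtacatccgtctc
C16A3.11: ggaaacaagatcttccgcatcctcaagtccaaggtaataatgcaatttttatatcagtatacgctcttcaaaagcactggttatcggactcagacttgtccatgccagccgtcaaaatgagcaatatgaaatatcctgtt
R151.13: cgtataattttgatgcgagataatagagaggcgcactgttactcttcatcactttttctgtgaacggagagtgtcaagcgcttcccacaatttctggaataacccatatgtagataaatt

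The strong sites carried some of the highest signal values of the list. Their median signal value, the authors' own measure per peak, was 193 (interquartile range 136 to 318, range 9.88 to 791), against 29.8 at weak sites (range 2.08 to 73.6), 95.8 over all strong rows of the list and 23.7 over all rows. W03C9.9, a box C/D snoRNA gene in no coding gene, stood at 791 (II:11960687-11960966), and the replicates gave 385 and 399. C51F7.4, in an intron of the FERM domain gene frm-7 and beside a second snoRNA gene, C51F7.3, had 738 (V:12303505-12303770), and the replicates gave 386 and 351. T03F7.8, inside cutl-18 on the opposite strand, had 682, with 320 and 360 (V:11314073-11314365). By signal value these 3 sites ranked 4, 7 and 9 among all rows. They were followed by ZK265.10, in no coding gene (signal value 539, replicates 240 and 289), ZK994.7, in an intron of the peroxidasin gene pxn-1 (498, replicates 215 and 276), and T06C12.16, in no coding gene (489, replicates 256 and 228). In each of these 6 sites the replicates' values lay within 1.5-fold of each other.

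The next strongest sites lay in every kind of position. T02E1.9, which overlaps an exon of spe-12, a gene needed for sperm activation, had 429, with replicate values of 254 and 170. Y43F8C.22, an H/ACA-type gene in an intron of Y43F8C.7, had 385 (replicates 184 and 193), F55A11.10, a C/D-type gene in an intron of F55A11.6, had 376 (172 and 193), and D1046.6, an H/ACA-type gene in an intron of the cleavage factor gene cfim-2, had 372 (176 and 189). The other top 15 sites were T27A3.9 (346), Y23H5B.10 (345), C04G6.12 inside the MAP kinase gene mpk-2 on the opposite strand (339), C05D2.15 in madf-11 (325, with 184 in replicate 1 and 135 in replicate 2) and F32E10.10 (319). In 13 of these 15 the summit lay upstream of the gene.

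Both replicates had peaks at all strong sites. The replicate values are those of the best peak of each replicate's own ranked list that overlaps the site by at least 1 bp, since the series list does not name the peak sets it compares. All 60 strong sites had a ranked peak in both replicates, and 92 of the 157 weak sites did, with 15 in neither. In replicate 1 the median was 93.1 at strong sites (n = 60, range 19.3 to 386) and 21.3 at the 112 weak sites with a peak, beside 16.6 over its whole ranked list. In replicate 2 it was 108 at strong sites (range 31.1 to 399) and 21.4 at the 122 weak sites with a peak, beside 16.4 over its list. The 2 groups therefore stood apart in each replicate, though not without overlap, since the highest weak values were 99.3 and 116.

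The highest of those weak values belong to a strong neighbour. T24H7.6 has a strong site at -64 (signal value 220) and a weak site at 138 (19.02), and the ranked peak of each replicate that overlaps the weak row is the one at the strong site, with 99.3 in replicate 1 and 116 in replicate 2. A stronger row of the same list overlapped 2 of 60 strong sites and 38 of 157 weak sites. Over sites with both values, the log10 signal values of the replicates correlated at Pearson's r = 0.91 (Spearman's rho = 0.93) in the 60 strong sites and at 0.55 (0.40) in 92 weak sites. These are descriptions across sites that share 2 libraries, and the deposited lists state no common scale. The ratio of replicate 2 to replicate 1 had a median of 1.01 at strong sites (range 0.451 to 2.52) and of 0.977 at weak sites (0.238 to 3.27), and 54 of 60 strong and 59 of 92 weak sites lay within 1.5-fold.

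**Figure D1:**
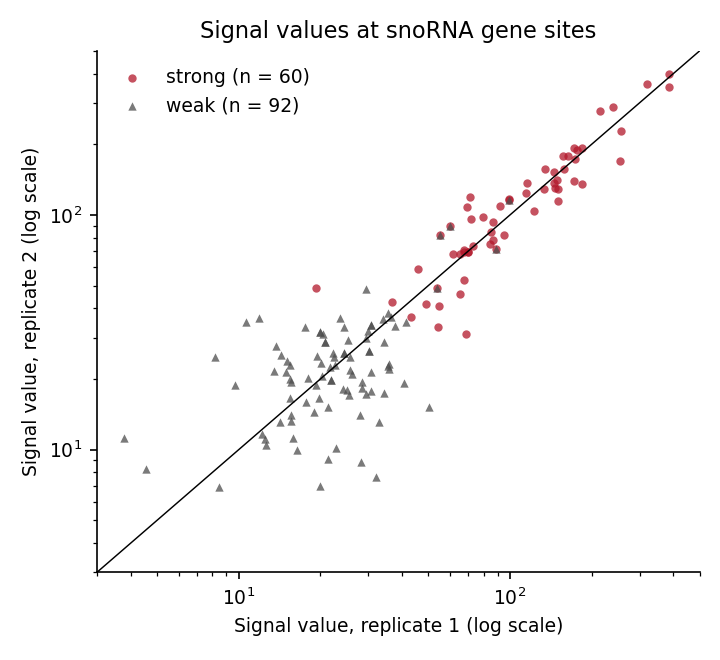
Signal value of the best overlapping ranked peak in replicate 1 (horizontal, log scale) against replicate 2 (vertical, log scale) for the 60 strong sites (circles) and the 92 weak sites with a peak in both (triangles). The line marks equal values. Strong sites run along the line up to 386 and 399, most weak sites form a cloud near 20 in both, and some triangles lie among the circles. The triangle highest in both (99.3 and 116, T24H7.6) is a weak row overlapped by a stronger row, while others, such as K02F6.11, have no stronger row over them.

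Each replicate's own thresholded list held most strong sites and hardly any weak ones. A summit of the list of replicate 1 lay in 52 of 60 strong rows (86.7%, interval 75.8 to 93.1) and in 1 of 157 weak rows, against 0.499% of all rows. For replicate 2 it was 50 of 60 strong rows (83.3%) and 0 of 157 weak rows, against 0.522% of all rows. Both lists held 48 of the 60, and neither held 6, namely Y71D11A.7, F25H2.15, Y53F4B.47, C36E8.11, F07A11.15 and R08C7.19. A summit of the conservative list lay in 58 of 60 strong rows and 3 of 157 weak rows, against 1.2% of all rows. The strong rows without one were F07A11.15 and the second row of R12E2.17, and the weak rows with one were K02C4.8, T24H7.6 and Y24D9A.10. All these lists come from the same pair of libraries, so they repeat the call rather than test it.

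At the threshold the groups met. The strong sites of lowest signal value were Y53F4B.47 (87.6, replicates 54.4 and 33.2), C36E8.11 (86.2, replicates 36.7 and 42.4) and F07A11.15, a gene that overlaps an exon of din-1 (70.5, replicates 19.3 and 48.8). Below these were only strong rows overlapped by a stronger row: R12E2.17 (22.1, beside 136 at the gene's other row) and R08C7.19 (9.88, beside 76.7). The strongest weak sites were K02F6.11 (73.6), smy-3 (72.7), T19C4.11 in an intron of the G protein gene gpa-1 (71.3), C05H8.3 (70.3) and D2021.6 (69.96). Their replicate values were alike, except that D2021.6 had 50.2 in replicate 1 and 15.2 in replicate 2. No 36-base word of T19C4.11 occurs once in the genome, and only 35.3% of those of K02F6.11 do, so reads there could come from other copies. Of those of the strong Y53F4B.47, 82.2% occur once. At 54 of 60 strong and 135 of 157 weak sites all such words of the gene do, so other copies can bear on both groups.

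Replicates differed most at weak sites. The highest ratios of replicate 2 to replicate 1 were at K11D9.10 (3.27), W10C8.17 in an intron of the Wnt pathway factor gene pop-1 (3.06), F41E6.18 (3.03), W02B9.3 in the cadherin gene hmr-1 (2.98) and the strong site F07A11.15 (2.52). The lowest were at Y65B4A.10 (0.238), D2021.6 (0.303), F37A8.7 (0.316), F56A11.14 in the ephrin gene efn-4 (0.349) and F25H2.14 in tct-1 (0.402). A stronger row of the list overlapped F41E6.18, W02B9.3, Y65B4A.10 and F56A11.14, so their replicate values can be those of a neighbouring peak. The weakest sites of all were F32B4.12 (signal value 2.08), W02B9.3 (2.21), F56C9.12 (3.18), R11A5.8 (3.21) and C25F6.30 (3.42), and a stronger row of the list overlapped each of them.

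The summits of strong sites lay just upstream of the snoRNA gene, and those of weak sites were spread over and beyond it. The summit was upstream of the first annotated base at 50 of 60 strong sites (83.3%, interval 72.0 to 90.7) and at 55 of 157 weak sites (35.0%, interval 28.0 to 42.8). The median position was -43.5 at strong sites (range -93 to 166) and 49 at weak sites (range -100 to 414). From 70 to 30 bp upstream lay 35 strong summits (58.3%) and 28 weak summits (17.8%). Inside the gene were 8 strong and 61 weak summits, and past its 3′ end 2 strong and 41 weak summits. The rule admits a summit up to 100 bp beyond either end, which sets the range of positions and bears on the shares. With 50 bp allowed, 76.5% of strong and 21.1% of weak summits were upstream and the median of strong sites was -23, and with 250 bp allowed 76.8% of strong and 43.4% of weak summits were upstream and the median was -42.

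**Figure D2:**
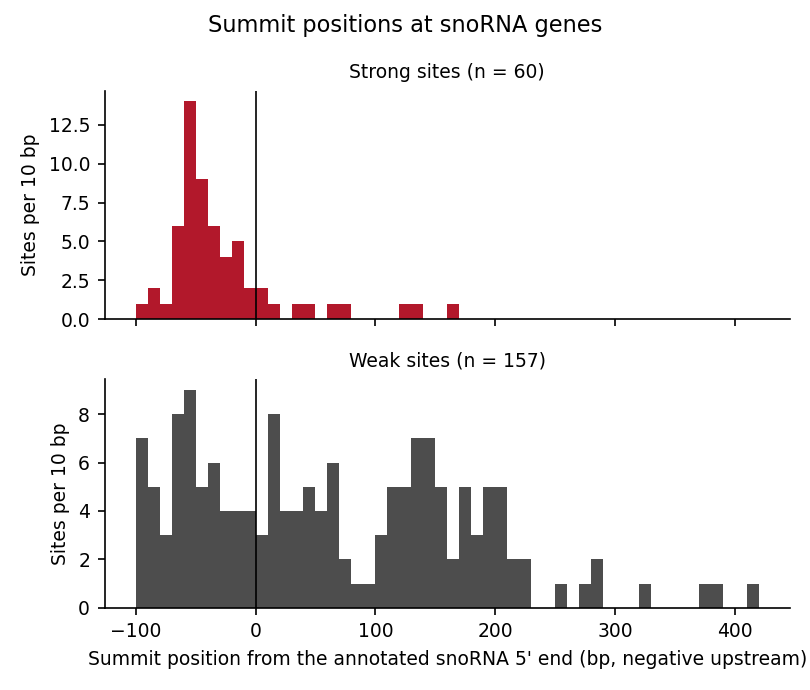
Number of sites per 10 bp (vertical) by summit position from the annotated 5′ end of the snoRNA gene (horizontal, bp, negative upstream, the line marks 0), strong sites above and weak sites below, on separate vertical scales. Strong summits pile up from 70 to 30 bp upstream with a median of -43.5, while weak summits run from -100 to 414 without such a pile.

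Measured from the annotated 5′ end, strong summits at tRNA and snRNA genes lay elsewhere, with intervals that do not overlap that of strong snoRNA sites. Among strong rows, the summit was upstream of the 5′ end at 83.3% of snoRNA sites, against 22 of 234 strong rows at tRNA genes (9.40%, interval 6.29 to 13.8) and 3 of 20 at snRNA genes (15%, interval 5.24 to 36.04). The median position was -43.5 at snoRNA genes, 23.5 at tRNA genes and 51.5 at snRNA genes. The A core also lies elsewhere in tRNA genes, starting at a median of 7 in the 368 with a pair. At strong snoRNA sites with a pair it started at a median of -59, and their median summit was at -44.5. So the difference from the 5′ end need not be one from the cores, which was not tested. At tRNA genes 234 of 423 rows were strong (55.3%) and at snRNA genes 20 of 76 (26.3%), beside 27.6% at snoRNA genes. Their median strong signal values were 193 at snoRNA genes, 138 at tRNA genes and 114 at snRNA genes.

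The 10 strong sites whose summit was not upstream were of several kinds. C51F7.4 (40), ZK994.7 (10), F11A10.9 (32), Y37E3.20 (1), Y53F4B.47 (6), C14C10.8 (73), F07A11.15 (166) and R08C7.19 (65) had it inside the gene. B0334.12 (124) and the second row of R12E2.17 (132) had it past the 3′ end. At 19 genes there were 2 sites. In 6 of these genes a strong site lay upstream, from -83 to -37, and the second site lay from 132 to 163. These are C17D12.8, K02C4.8, R12E2.17, T24H7.6, Y71D11A.7 and Y71F9AM.7. The second rows had signal values from 14.99 to 27.6, against 106 to 220 upstream, and all overlapped the stronger row.

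Strong sites occurred at intronic and independent snoRNA genes alike. An intronic gene lies inside a coding gene on the same strand and outside its exons, and an independent gene lies in no coding gene. Of the 60 strong sites 22 were intronic (36.7%, interval 25.6 to 49.3), 24 independent (40%), 10 inside a coding gene on the opposite strand (16.7%) and 4 overlapped an exon. Of the 157 weak sites 74 were intronic (47.1%, interval 39.5 to 54.9), 56 independent (35.7%), 7 on the opposite strand (4.46%) and 20 overlapped an exon. All 346 snoRNA genes divide into 146 intronic, 124 independent, 29 opposite-strand and 47 exon-overlapping ones. With genes on either strand of a coding gene counted as intronic, the shares were 53.3% at strong and 51.6% at weak sites, so the order of the 2 shares depends on that choice. The Wilson intervals of the intronic share in strong and weak sites overlap, and those of the opposite-strand share do not (9.31 to 28.0 and 2.18 to 8.92). Counted by genes, 10 of 29 opposite-strand genes (34.5%, interval 19.9 to 52.7) had a strong site, against 22 of 146 intronic genes (15.1%, interval 10.2 to 21.8) and 24 of 124 independent ones (19.4%, interval 13.4 to 27.2). These intervals of genes overlap.

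Strong summits were mostly upstream in all classes but the few exon-overlapping genes. At independent genes 23 of 24 strong and 17 of 56 weak summits were upstream, and at intronic genes 17 of 22 strong and 29 of 74 weak ones. At opposite-strand genes it was 8 of 10 strong and 3 of 7 weak summits, and at exon-overlapping genes 2 of 4 strong and 6 of 20 weak summits. The median signal value of strong sites was 203 at intronic and 193 at independent genes. Most strong intronic summits were far from the start of the host gene. They lay a median of 1331.5 bp from the nearest 5′ end of a host transcript, and 3 of 22 lay within 300 bp of one, beside 12 of 74 weak intronic sites. Their median distance to the nearest coding exon was 103 bp. The introns had a median length of 337.5 bp at strong sites (upper quartile 467, longest 5251) and 342.5 bp at weak sites (upper quartile 1602.5, longest 10404). Only 1 of 60 strong summits lay in an exon of a coding gene, against 32 of 157 weak ones.

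No strong site of this ranked list lay in an intron of a ribosomal protein gene, whereas in the other ranked list of the series 1.64% of 61 strong sites did. Ribosomal protein genes are here those whose symbol starts with rpl-, rps- or rla-. One with another symbol would count among the other hosts. Of the 16 sites in introns of ribosomal protein genes 0 were strong (upper Wilson bound 19.4%), against 22 of 75 sites (29.3%, interval 20.2 to 40.4) in hosts outside the named classes. The sites had signal values from 4.23 to 48.02, with a median of 24.6, close to the 23.7 of the whole list. The highest was C16A3.11 in rps-13 (48.02, replicates 15.6 and 19.5), then R151.13 in rpl-6 (35.1), F54E7.11 in rps-12 (34.8), F28C6.11 in rpl-26 (33.2) and B0250.19 in rpl-2 (31.2). The others were Y24D9A.10 and Y24D9A.9 in rpl-7A (25.3 and 4.23), Y43B11AR.7 in rps-4 (25.1), B0412.6 and B0412.7 in rps-29 (25.04 and 9.65), F53G12.12 in rpl-7 (22.4), K11H12.12 and K11H12.13 in rpl-15 (21.1 and 6.16) and B0041.9 in rpl-4 (20.6). The gene rpl-6 was the only host with 3 snoRNA genes that have a site, R151.11 (24.2), R151.12 (8.13) and R151.13 (35.1). A stronger row of the list overlapped Y24D9A.10, Y24D9A.9, B0041.9, B0412.7, R151.12 and K11H12.13. At Y24D9A.10 that row had 70.7, and the replicate values were 41.2 and 34.9. The summits of F54E7.11, F28C6.11, Y43B11AR.7, K11H12.12, R151.12 and Y24D9A.9 lay in an exon of a coding gene. All 19 snoRNA genes hosted by ribosomal protein genes so defined lacked a strong site: 16 had weak sites and 3 had none. The upper Wilson bound of 0 of 19 is 16.8%, and 22 of all 146 intronic genes had a strong site (15.1%, interval 10.2 to 21.8). Counted by genes, these intervals overlap.

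Hosts classed by their symbols as translation factors, chaperones or splicing factors had 0 strong sites among 5, beside 22 of all 96 intronic sites (22.9%). With so few sites, 0 says little. Hosts outside these classes with a strong site include fars-1, named for a phenylalanyl-tRNA synthetase (T08B2.13, 239), rbm-34, named for an RNA-binding motif (F11A10.9, 135), and cfim-2 (D1046.6, 372). The elongation factor gene eef-1G held weak sites at F17C11.15 (25.7) and F17C11.14 (19.1), neither with a ranked peak in a replicate. The chaperone gene dnj-20 held T15H9.8 (11.8 and 7.90), and the splicing factor gene uaf-1 held Y92C3B.4 (31.8). The gene nol-56, itself coding for a core protein of box C/D particles, hosts 4 snoRNA genes, of which K07C5.11 and K07C5.18 had weak sites with signal values from 10.4 to 40.1.

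**Figure D3:**
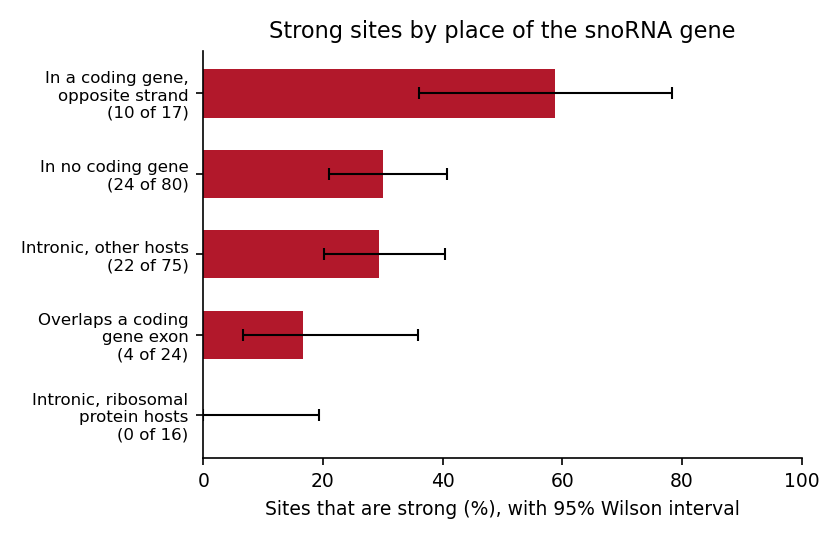
Share of sites that are strong (horizontal, percent) by place of the snoRNA gene, with the number strong of all sites in each class and 95% Wilson intervals as bars. Opposite-strand genes reach 58.8%, independent genes and introns of other hosts lie at 30% and 29.3%, and introns of ribosomal protein genes are at 0 of 16. Introns of translation factor, chaperone and splicing genes, with 0 strong sites, are not drawn.

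An A core followed by a B core was frequent at strong sites and rare at weak ones. Both were searched within 100 bp of the summit on both strands, and a pair was counted when TGGNNNAG was followed on the same strand by GTTCNA 25 to 75 bases later, start to start. The letters were chosen after the strongest sites had been read. A pair occurred at 20 of 60 strong sites (33.3%, interval 22.7 to 45.9) and at 4 of 157 weak sites (2.55%, interval 0.995 to 6.37), against 1.91% of all rows. It occurred at 55.6% of rows at tRNA genes, at 0 of 76 rows at snRNA genes and at 37 of the 927 strong rows away from all these genes (3.99%). With the stricter B core GTTCGA, which is contained in GTTCNA, 14 strong and 0 weak sites had a pair, against 0.721% of all rows.

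**Figure D4:**
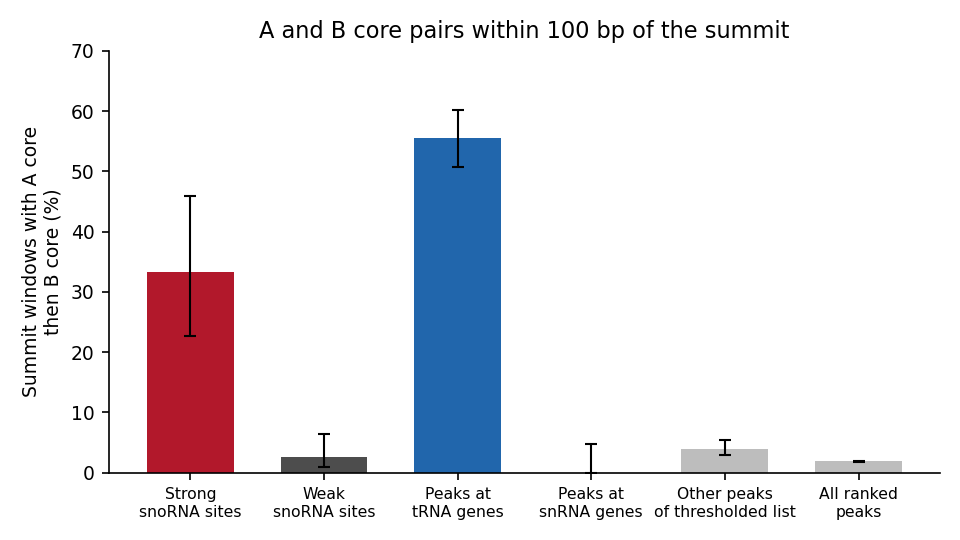
Share of windows of 100 bp on each side of the summit that hold an A core followed by a B core (vertical, percent), with 95% Wilson intervals, for strong and weak snoRNA sites, peaks at tRNA genes, peaks at snRNA genes, other peaks of the thresholded list and all ranked peaks. Strong snoRNA sites (33.3%) lie below peaks at tRNA genes (55.6%) and above every other group drawn, none of which passes 3.99%.

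Each core alone marked strong sites less sharply. The A core was near 39 of 60 strong sites (65%) and 52 of 157 weak sites (33.1%), beside 28.8% of all rows, and the B core near 37 strong sites (61.7%) and 52 weak sites (33.1%), beside 33.3%. Rows at tRNA genes had the A core at 67.1% and the B core at 92.4%. Rows at snRNA genes had them at 19.7% and 53.9%, so the B core alone was not particular to strong snoRNA sites. GTTCGA was near 22 strong sites (36.7%) and 13 weak sites (8.28%), beside 7.68% of all rows and 69.5% of rows at tRNA genes. GGTGTGA, the core of the site recognised by T-box proteins, was near 0 of 60 strong sites (upper Wilson bound 6.02%) and 4 of 157 weak sites, beside 1.59% of all rows. Its shorter form GTGTGA, contained in it, was near 4 strong sites and 15 weak sites, beside 7.62%. TATAAA was near 14 strong sites (23.3%) and 29 weak sites (18.5%), beside 16.3%, and CGGAAC near 7 (11.7%) and 17 (10.8%), beside 5.56%. A match is a description and shows no binding.

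At strong sites the pair was mostly just upstream of the gene, in a search that reached only 100 bp from the summit. In 19 of the 20 strong sites it ran on the strand of the snoRNA, and the exception was B0334.12, where it ran on the other strand and the summit lay past the 3′ end. The A core began at a median of -59 and the B core at a median of -14, and 18 of 19 B cores began upstream of the annotated gene. C51F7.4 was the exception, with the cores at 10 and 65, and the same cores and summit lie upstream of its neighbour C51F7.3 on the same strand. The start-to-start distance was 43 to 55 bases with a median of 45, and the 55 is that of C51F7.4, where the choice between B cores sets it. In the 368 of 612 nuclear tRNA genes with such a pair it was 36 to 68 bases with a median of 44. The A core there began at a median of 7 inside the gene. The summit lay between both core starts at 13 of 19 strong sites.

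**Figure D5:**
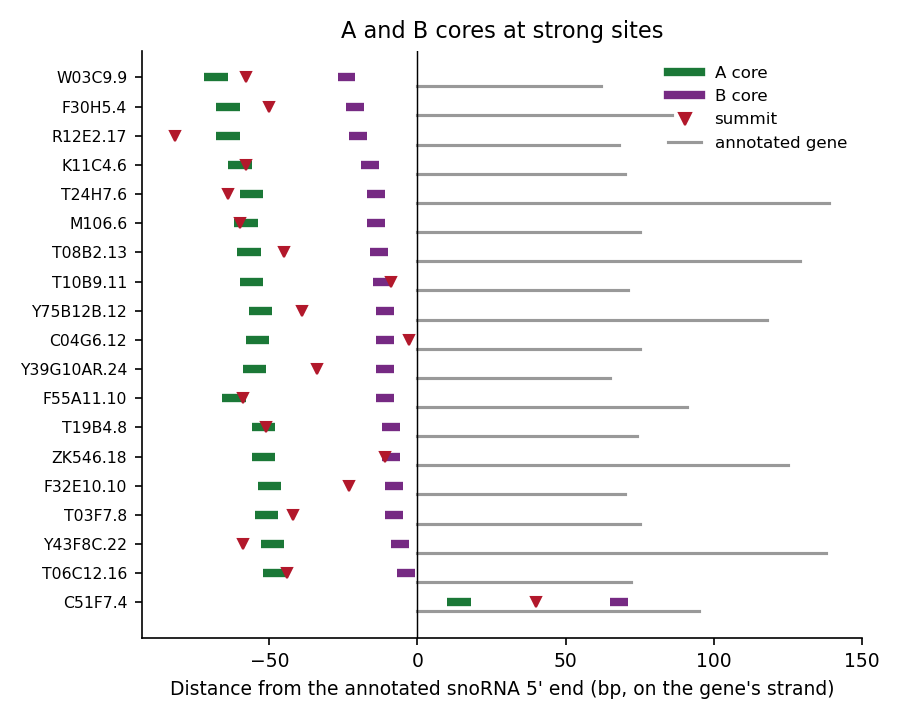
A cores (green), B cores (purple) and summits (triangles) at the 19 strong sites with a pair on the snoRNA's strand, by distance from the annotated 5′ end (horizontal, bp), with the annotated gene as a grey line. In 18 sites both cores lie upstream of the gene, the A core near -59 and the B core near -14, and C51F7.4 at the bottom has both inside it, upstream of the neighbouring C51F7.3, which is not drawn.

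Seen from the pair, nearly all carriers were strong. Of the 24 sites with a pair 20 were strong (83.3%, interval 64.1 to 93.3), against 40 of 193 without (20.7%, interval 15.6 to 27.0), and all 18 sites with a pair and an upstream summit were strong. The pair was not tied to position, with 9 of 10 intronic and 11 of 14 other carriers strong. The weak carriers were Y111B2A.35 and T13E5.1, with the pair on the opposite strand, F42H10.17, with the cores at 156 and 197, and R166.7 in an intron of mnk-1, with the cores at -50 and -5. R166.7 had a signal value of 27.99, and its replicate values were 15.5 and 20.005. Strong sites with a pair had a median signal value of 262 (range 136 to 791) and strong sites without one 171 (range 9.88 to 539).

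All 346 genes, with or without a site, were also searched from 110 bp upstream to 20 bp inside. The pair was there in 23 genes, of which 19 had a strong site (82.6%, interval 62.9 to 93.0), 3 had weak sites and 1 had none. The letters of the cores were chosen after strong sites among these had been read, so this share describes them and tests nothing. C51F7.3 is among the 19, through the site assigned to C51F7.4. The weak ones were R166.7, F17C11.15 in eef-1G (25.7) and Y59E1B.14 (48.8), and the gene without a site was T23B12.13 in an intron of mrps-2. Of the 323 genes without the pair 41 had a strong site (12.7%, interval 9.50 to 16.8). None of the 19 genes in ribosomal protein hosts had the pair (upper Wilson bound 16.8%). Since only 23 of all 346 genes had it, 0 of 19 says little. Most strong sites, 40 of 60, lacked it, among them ZK265.10, ZK994.7, T02E1.9 and D1046.6. It was at 9 of the 20 strongest strong sites, 9 of the middle 20 and 2 of the lowest 20.

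A run of T behind the gene also went with strong sites. TTTTT within 30 bp after the annotated 3′ end, on the snoRNA's strand, was found at 35 of 60 strong sites (58.3%, interval 45.7 to 69.9) and 35 of 157 weak sites (22.3%, interval 16.5 to 29.4). By genes it was 35 of 60 with a strong site, 30 of 140 with weak sites (21.4%) and 26 of 146 with none (17.8%). Among strong sites its share was alike with and without the pair, at 12 of 20 (interval 38.7 to 78.1) and 23 of 40 (interval 42.2 to 71.5). These wide intervals cannot show that it is unrelated to the pair. Over all sites it was at 13 of 24 with a pair (54.2%) and 57 of 193 without (29.5%), and most sites with a pair are strong.

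The genes under strong sites were also shorter. The annotated length had a median of 93 bp at strong and 133 bp at weak sites, and 130 bp over all snoRNA genes. Of sites at genes under 100 bp 31 of 61 were strong (50.8%, interval 38.6 to 62.9), and of the others 29 of 156 (18.6%, interval 13.3 to 25.4). Box type was assigned from the ends of the annotated sequence alone, and 241 of 346 genes stayed unclassified. H/ACA-type ends were at 19 of 60 strong and 41 of 157 weak sites, and C/D-type ends at 5 strong and 5 weak sites. The windows of strong sites were richer in G and C, with a median of 50% against 41.3% at weak sites, 46.8% at strong rows away from small RNA genes and 38.3% over all rows. The part of base composition in the signal or in the motif shares was not tested.

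Few strong sites lay on the X chromosome. It held 22 of the sites, of which 1 was strong (4.55%, interval 0.807 to 21.8), at C53B7.8 (134, replicates 61.6 and 68.4). X has 33 of the 346 snoRNA genes (9.54%). Elsewhere the strong share was 16.2% on chromosome III (6 of 37), 31.3% on IV (10 of 32), 31.3% on II (15 of 48), 34.7% on I (17 of 49) and 37.9% on V (11 of 29), and the interval of X overlapped those of all but chromosomes I (lower bound 22.9) and V (lower bound 22.7).

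Genes that make or assemble snoRNAs had no strong summit in the promoter window, from 1000 bp upstream to 200 bp downstream of a transcript's 5′ end. Among all coding genes 3.28% had one and 69.9% had a ranked summit. All 8 genes of snoRNA particle proteins matched the annotation, and 8 had a ranked summit and 0 a strong one. The best were the methyltransferase gene fib-1 (signal value 62.2), nola-3 (56.7) and the pseudouridine synthase gene dkc-1 (48.4). Of 10 genes for the transcription of small RNA genes 9 matched, and 9 had a ranked and 0 a strong summit, with the highest signal values at snpc-3.4 (63.7), the polymerase III factor gene brf-1 (62.0) and the TATA-binding protein gene tbp-1 (46.9). Lists this short would hold less than 1 strong gene at the share of all coding genes, so 0 says little.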

How the data were processed

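ChIP-seq peaks of SEA-1 from 2 biological replicates of early embryos, which form a single group, were described from narrowPeak lists on ce11, per the labels. Each series list derives from the alignments of both replicates and each own list from those of 1 replicate, per the texts deposited with the samples. Aligner, peak caller and depth: not given in the sources used here, so the depth is unknown. The authors deposited a signal value per peak and state no normalization. The 4 columns of the ranked series lists with the signal values of unnamed compared peak sets were not used. The deposited score encodes the IDR, with 830 marking 0.01, and the thresholded peaks lie at or above it. The deposited −log10 q-value was read and not used further. The deposited summit offset gives the summit.

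Positions were set against the Ensembl 115 annotation of WBcel235 and RefSeq's sequence of that assembly. A site was assigned to the snoRNA gene with the nearest body, and an intronic gene could overlap an exon by at most 5 bp. C/D-type ends were TGATGA in the first 20 bases and CTGA in the last 20, and H/ACA-type ends were ACA starting in the last 8. Intervals are 95% Wilson intervals and cover counting error only. No test was made, since sites are not replicates of a condition. Site finding was tested on simulated data. The sites named are the 15 of highest signal value, the 5 strong sites of lowest and 5 weak sites of highest value, the 5 weakest, the 5 of highest and 5 of lowest replicate ratio, hosts with 3 or more snoRNA genes with a site, and those in ribosomal protein genes; any other site named was chosen after its values were seen. The members, lists and motifs were chosen with earlier results of these data known. Alternatives changed the distance, the list, the IDR threshold, the replicate whose own list gave the strong call, the gene assignment, the motif window and the overlap. Work was done in Python 3.11.15 with numpy 2.4.6, pandas 2.3.3, scipy 1.17.1 and matplotlib 3.10.9.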

Additional observations from a re-analysis of the deposited data

How the results depend on the processing

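Of 173 recomputed values 163 stayed within the interval of the reported value or, for the number of sites, within 1.5 times. Among these 163, the 18 with tRNA neighbours kept could not move, since 0 rows had been dropped for a tRNA gene. The 6 with the gene of nearest 5′ end could hardly move. Only 2 of 217 sites had 2 or more snoRNA genes within 100 bp. The distance from summit to gene moved most: 143 sites lay within 50 bp and 327 within 250 bp, and the median position of strong summits was -23 within 50 bp. The strong share was 21.1% within 250 bp, and the share of weak summits upstream was 21.1% within 50 bp and 43.4% within 250 bp. With genes inside a coding gene on either strand counted as intronic, 53.3% of strong and 51.6% of weak sites were, which turns the order of the reported 36.7% and 47.1%. In the other ranked list 1.64% of 61 strong sites lay in a ribosomal protein gene, against 0 here. With the strong call taken only from the own list of replicate 2, the share of strong sites was 23.0%, and from that of replicate 1 it was 24.4%. The upstream share of these strong sites was 90% and 84.9%, and the pair of cores was at 40% and 37.7% of them. Sites, summits and motif windows stayed those of the list made from both replicates. These values therefore do not show the summit positions of 1 replicate alone. No paired analysis was possible because the labels give 1 group. The unknown depth limits all counts of weak sites, and no control precipitation was used.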

Other observations

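Among all 6-base words, counted with their reverse complements, those whose share differed most between strong and weak sites were rich in G and C. They were listed after their values were seen. GGCGCA was within 100 bp of 22 of 60 strong summits (36.7%) and 10 of 157 weak summits (6.37%), beside 4.37% of all rows of the list. GTTCGA was near 22 and 13. ACTGCG was near 17 strong summits (28.3%) and 6 weak ones (3.82%), beside 3.91%, and ACGCGC near 14 (23.3%) and 3 (1.91%), beside 3.76%. The strong windows were also richer in G and C, as given above, and the part of base composition in these shares was not tested.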
